A study of Mus musculus with 6 samples.

Results

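Nitric oxide, prostanoid, endothelin and angiotensin genes were examined in endothelial cells cultured from mouse brain, with and without the transcription factor genes Erg and Fli1. The 9 genes, Nos3, Ptgs1, Ptgs2, Ptges, Ptgis, Edn1, Ece1, Ednrb and Ace, were listed by symbol among 52636 genes of the count table. The list was made with earlier results of these data known. All 9 had a row and passed the filter on low counts. RNA of 3 wild-type control cultures and 3 Erg and Fli1 double knockout cultures was sequenced. Both groups received 4-hydroxytamoxifen (4-OHT), the drug that induces the deletion, and live cells with CD31 and VE-cadherin but without CD45 on their surface were sorted from each. The sources used here do not give the driver of the recombinase, the strain or the age of the mice. The labels do not tie libraries to animals, so the p-values reflect only how far these libraries vary, which may be partly technical.

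Endothelial cells set vessel tone through short-range signals. Nitric oxide, made by the endothelial synthase eNOS (Nos3), relaxes the smooth muscle below. The prostanoids arise from arachidonic acid through the cyclooxygenases (Ptgs1 and Ptgs2), followed by terminal synthases such as prostacyclin synthase (Ptgis, making a vasodilator) and the inducible prostaglandin E synthase (Ptges). Endothelin 1, the constrictor encoded by Edn1, is cut from its precursor by the converting enzyme Ece1. Its B-type receptor (Ednrb) clears endothelin and can evoke nitric oxide release from endothelium. Angiotensin-converting enzyme (Ace) makes the constrictor angiotensin II and breaks down bradykinin.

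In the knockout, Nos3 fell to 9.42% of the control mean, Ptgs2 rose to 3.79 times it and Ednrb to 8.36 times it. These were the 3 genes of the 9 that passed the test (edgeR quasi-likelihood test, adjusted p under 0.05), 2 higher and 1 lower, where 24.7% of all 13901 genes tested passed (13.1% higher and 11.7% lower). The same 3 genes were those whose groups did not overlap, as for 46.3% of all genes tested (25.0% higher and 21.3% lower). Ptgs1, Ptges, Ptgis, Edn1, Ece1 and Ace did not pass with all 6 libraries. Without control 2, 5 of the 9 rose and 3 fell, where 50.3% of 14178 genes tested passed (25.5% higher and 24.8% lower). All of the 9 except Ace then did not overlap between groups, as for 69.9% of all genes tested (37.6% higher and 32.3% lower). Both fits share controls 1 and 3 and the knockouts, and the smaller one is no independent repeat.

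Control 2 stood apart from the other controls in most of these genes. Libraries held 17274639 to 19410458 counts. Levels are given as CPM (counts-per-million on TMM-scaled library sizes), as mean ± SD of n = 3 per group. Erg was at 656, 223 and 610 CPM in controls 1 to 3 and 70.2 to 109 CPM in the knockouts, and passed the test (a log2 change of -2.48, edgeR adjusted p = 0.0137), a call lost without control 3 or any 1 knockout. Fli1 did not pass (a log2 change of -0.32, edgeR adjusted p = 0.181; -0.48 and 0.00346 without control 2). These counts cover whole genes, and the labels do not say which exons are deleted. The summed level of 12 endothelial markers was 7438 CPM in control 2, 16765 and 16885 CPM in the other controls and 3919 to 4809 CPM in the knockouts. Of these markers 11 fell, where 11.7% of all genes tested were called lower. Among the 11 were Pecam1 and Cdh5, which encode the sort markers CD31 and VE-cadherin. The exception was Eng (a log2 change of 0.01, edgeR adjusted p = 0.991; -0.39 and 0.00466 without control 2). The sum of 12 fibroblast markers was 13227 CPM in control 2, 422 and 1159 CPM in the other controls and 1646 to 2868 CPM in knockouts. Among them Dcn alone had 1343 to 2110 CPM in knockouts and 317 CPM in control 2, and Slc6a13 was at 0 throughout. The sum of 12 pericyte and smooth muscle markers was 4306 CPM in control 2, 477 and 592 CPM in the other controls and 783 to 1577 CPM in knockouts. Astrocyte markers summed to 9.52 to 19.5 CPM in all libraries. Control 2 was also the only female library among the controls, by its Xist and Y-linked counts, while knockouts 2 and 3 were female. A fit with sex as a covariate was made as an alternative, and Nos3, Ptgs2 and Ednrb passed in it too. Among the controls, sex and other traits of control 2 cannot be told apart. The part of other cell types in the results below was not tested. Fewer cells of a type and less RNA per cell cannot be told apart in these bulk libraries.

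**Figure D1:**
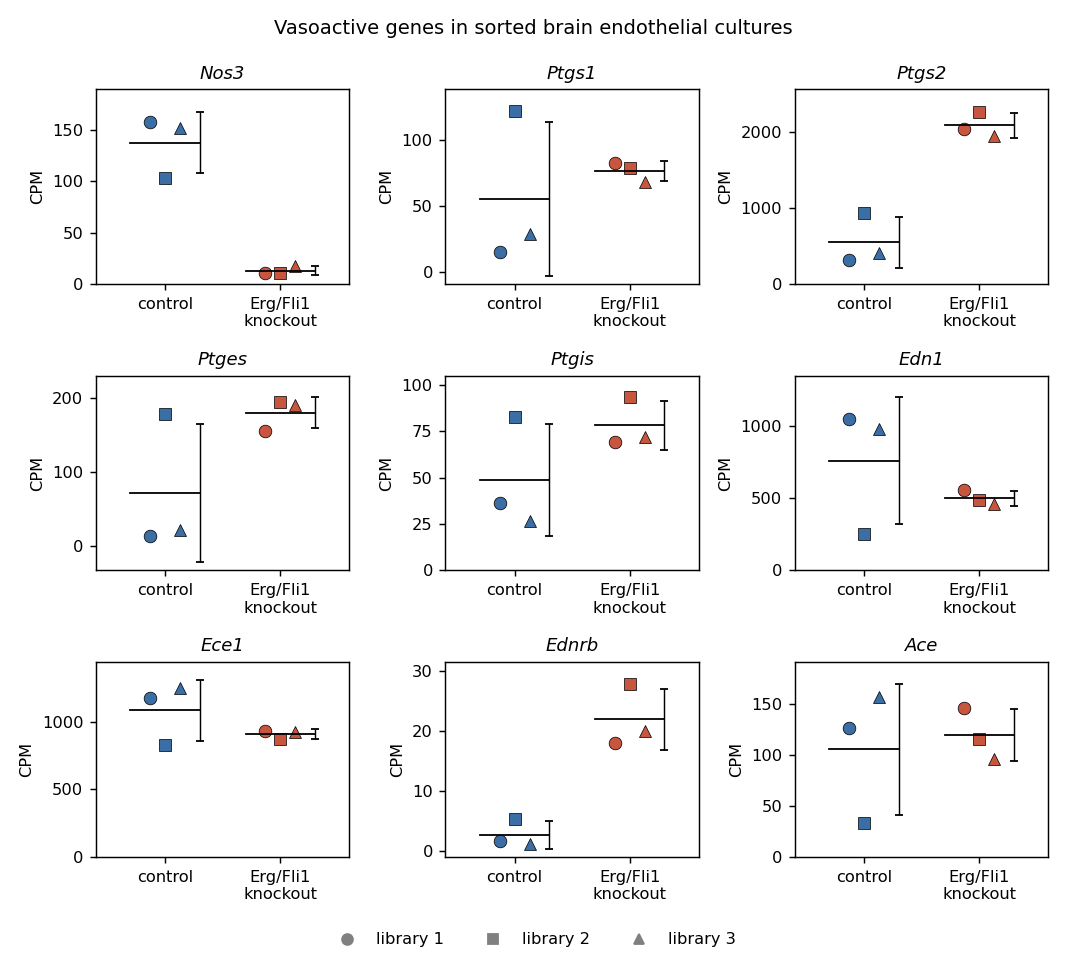
CPM (y axis, linear, each panel on its own scale) of the 9 genes in 3 control and 3 Erg and Fli1 knockout libraries. Symbols mark library 1, 2 or 3, lines the group mean and bars 1 SD; the square of control 2 lies apart from controls 1 and 3 in most panels, while Nos3, Ptgs2 and Ednrb show no overlap between groups.

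Nos3 had the smallest adjusted p of the 9 genes with all libraries. It stood at 157, 103 and 152 CPM in controls 1 to 3 and at 10.4, 10.5 and 17.9 CPM in knockouts 1 to 3. Each knockout lay far below each control, and control 2 was the lowest control. The fall from 138 ± 29.6 to 13 ± 4.27 CPM gave a log2 fold change of -3.41 (SE 0.29 and adjusted p = 0.00208 by edgeR). Nos3 passed with any 1 library left out (a log2 change of -3.71 to -3.27, edgeR adjusted p up to 0.0175). Its exact two-sided permutation p was 0.1, the smallest that 3 against 3 libraries allow, as it also was for Ptgs2 and Ednrb.

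The gene (ENSMUSG00000028978) lies on chromosome 5, 24364810 to 24384474 of GRCm38, on the plus strand. Annotated exons of Atg9b and Gm15587 on the opposite strand cover 32.3% of its exon bases, and the strand setting of the counting is not given, so some of its reads could be theirs. Atg9b itself had 14 to 102 counts in the controls, against 1900 to 2981 for Nos3. But Atg9b starts at 24384181 and meets only the end of Nos3. The counts of Gm15587, the other overlapping gene, were not read, so the Atg9b counts do not settle this. In the knockouts Nos3 held 189 to 321 counts.

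Of the other nitric oxide synthase genes, Nos2 did not pass the test and Nos1 was scarcely detected. Nos2, the inducible synthase, had 34.8, 22.1 and 36.7 CPM in controls 1 to 3 and 25.1, 27.2 and 42.9 CPM in knockouts 1 to 3. Its groups overlapped, with a log2 fold change of 0.03 (SE 0.28 and adjusted p = 0.956 by edgeR). Nos1, the neuronal synthase, had at most 4 counts in any library. Per kilobase of exon, Nos3 made up 82.8%, 83.3% and 81.6% of the sum of Nos3 and Nos2 in controls 1 to 3, and 30.8%, 29.3% and 30.8% in knockouts 1 to 3. Control 2 was close to the other controls in this share, and the groups did not overlap (exact two-sided permutation p = 0.1, the smallest possible).

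Among 27 other genes of nitric oxide synthesis and response, 24 were tested, of which 7 rose, 5 fell and 12 did not pass, where 24.7% of all genes tested passed (13.1% higher and 11.7% lower). Their median log2 fold change was 0.15, against 0.00 over all genes tested, and without control 2 it was 0.39, with 14 higher and 6 lower, where 50.3% of all genes passed. Cav1, encoding the caveolin that binds and restrains eNOS, had 3554, 1021 and 3470 CPM in controls 1 to 3 and 655 to 758 CPM in the knockouts. It fell by 1.92 on the log2 scale (SE 0.48 and adjusted p = 0.0357 by edgeR), and by 2.35 without control 2. Nostrin, which encodes an eNOS trafficking protein, rose from 3.05 ± 0.683 to 13.3 ± 2.13 CPM (a log2 change of 2.12, SE 0.22 and adjusted p = 0.00342 by edgeR). Gucy1b1, a subunit gene of the nitric oxide receptor soluble guanylate cyclase, rose from 2.41 ± 0.291 to 10.2 ± 1.85 CPM (a log2 change of 2.08, SE 0.20). For Nostrin and Gucy1b1 control 2 lay within the range of the other controls, and both kept their calls without any 1 library.

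Among genes for the eNOS cofactor tetrahydrobiopterin, Qdpr and Pts, named after their values were seen, fell (log2 changes of -0.80 and -0.53, edgeR adjusted p = 0.0399 and 0.0202). Gch1, the rate-limiting enzyme of its synthesis, had a log2 fold change of 0.79 and did not pass (edgeR adjusted p = 0.0634; 0.00480 without control 2). Cav1 lost its call without any 1 library other than control 2 (edgeR adjusted p up to 0.131).

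Ptgs2 was the prostanoid gene of the 9 that rose with all libraries. It had 311, 934 and 410 CPM in controls 1 to 3 and 2050, 2274 and 1958 CPM in knockouts 1 to 3. The knockouts were tightly grouped, and control 2 lay between them and the other controls. The rise from 552 ± 335 to 2094 ± 163 CPM gave a log2 fold change of 1.92 (SE 0.43 and adjusted p = 0.0266 by edgeR), and 2.5 (SE 0.13 and adjusted p = 1.585e-05 by edgeR) without control 2. It lost the call when any 1 of the other 5 libraries was left out (edgeR adjusted p 0.0542 to 0.0936), with log2 fold changes of 1.64 or more. Ptgs2 (ENSMUSG00000032487) lies on chromosome 1, 150100031 to 150108227, plus strand, and its exons overlap no other annotated gene.

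Because Erg and Fli1 encode ETS factors, which bind sites with a GGAA core, the 250 bases before the RefSeq start of the genes (GRCm38.p6) were searched on both strands. An ETS core was searched as CCGGAA, another ETS core as AGGAAG, and an AP-1 site as TGANTCA. Part of a cyclic AMP response element was searched as TGACGT, an E-box motif as CACGTG, and the motif of GATA factors as AGATAA. No letters of a match belonged to more than 1 motif in the windows shown. The windows of Ptgs2, Ednrb and Edn1 are shown because the first are the called genes that had a window in the table and Edn1 encodes the ligand of Ednrb. Matches are in capitals and each sequence is written in the direction of the gene.
Ptgs2: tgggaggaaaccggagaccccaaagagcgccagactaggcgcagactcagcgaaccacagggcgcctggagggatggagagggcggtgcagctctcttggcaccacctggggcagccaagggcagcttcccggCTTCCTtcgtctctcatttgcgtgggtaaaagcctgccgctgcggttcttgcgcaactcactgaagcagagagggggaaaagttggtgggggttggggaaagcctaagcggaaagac
Ednrb: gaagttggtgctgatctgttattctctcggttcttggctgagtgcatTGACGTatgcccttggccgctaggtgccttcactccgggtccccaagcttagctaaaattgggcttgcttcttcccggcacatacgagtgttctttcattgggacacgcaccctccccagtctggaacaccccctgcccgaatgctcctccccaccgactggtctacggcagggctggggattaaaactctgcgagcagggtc
Edn1: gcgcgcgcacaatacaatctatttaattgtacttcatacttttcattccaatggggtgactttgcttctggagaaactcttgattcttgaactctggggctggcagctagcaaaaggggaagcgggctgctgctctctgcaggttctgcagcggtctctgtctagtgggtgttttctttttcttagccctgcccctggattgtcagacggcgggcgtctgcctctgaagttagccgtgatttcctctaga
The Ptgs2 window (chr1:150099781-150100030, plus strand) held 1 AGGAAG match on the opposite strand, starting 117 bases before the start site. That of Ednrb (chr14:103843702-103843951, minus strand) held 1 TGACGT match 203 bases before it, and that of Edn1 (chr13:42301226-42301475, plus strand) held none of the motifs. AGGAAG occurred in 29.5% and TGACGT in 6.47% of all 32851 windows, and CCGGAA, found in no window of these genes, in 12%. Windows were at hand for 7 of the 9 genes, all except Nos3 and Ptgis. Ptgs1 (1 match) and the upstream window of Ace (2 matches) also held AGGAAG. The bare GGAA core was not searched, and it occurs outside the capitals in each window shown. A match is a string of letters and shows no binding.

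Ptgs1, the constitutive cyclooxygenase gene, had 15.2, 122 and 29.0 CPM in controls 1 to 3 and 82.9, 78.8 and 68.4 CPM in knockouts 1 to 3. The groups overlapped because control 2 exceeded every knockout, while controls 1 and 3 were below all of them. The log2 fold change was 0.47 (SE 0.75 and adjusted p = 0.681 by edgeR), and 1.77 (SE 0.24 and adjusted p = 0.00103 by edgeR) without control 2. Per kilobase of exon, Ptgs2 made up 94.6%, 86.7% and 92.3% of cyclooxygenase transcripts in controls 1 to 3 and 95.4% to 96.1% in the knockouts. Ptgs2 was thus the larger part in every library, least so in control 2.

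Ptges had the widest gap of the 9 genes between control 2 and the other controls as a ratio, not in CPM. It stood at 13.5, 179 and 22.7 CPM in controls 1 to 3 and at 156, 195 and 191 CPM in knockouts 1 to 3. Control 2 was in the range of the knockouts and the other controls were far lower. With all libraries the log2 fold change was 1.33 (SE 0.97 and adjusted p = 0.356 by edgeR). Without control 2 Ptges rose 9.96-fold (a log2 change of 3.28, SE 0.22 and adjusted p = 3.665e-05 by edgeR). The fibroblast sum was 13227 CPM in control 2, 422 and 1159 CPM in controls 1 and 3 and 1646 to 2868 CPM in the knockouts. Within it Dcn, a matrix proteoglycan gene, had 3.95, 317 and 6.96 CPM in controls 1 to 3. In knockouts it had 1343 to 2110 CPM, the largest part of each knockout sum. Col1a1 had 214, 5489 and 628 CPM in controls 1 to 3 and 104 to 235 CPM in knockouts. Of the 12 markers 10 were tested, and Pdgfra alone passed with all libraries, higher in knockouts, beside 24.7% passing over all genes. Without control 2 Dcn, Fbln1, Lum and Pdgfra were higher and Col1a1 lower, beside 50.3%. The part of the fibroblast markers in the level of Ptges was not tested.

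Ptgis, encoding prostacyclin synthase, had 36.1, 82.8 and 26.7 CPM in controls 1 to 3 and 69.0, 93.2 and 72.0 CPM in knockouts 1 to 3. Control 2 again lay among the knockouts. The log2 fold change was 0.69 (SE 0.43 and adjusted p = 0.295 by edgeR), and 1.28 (SE 0.17 and adjusted p = 9.594e-04 by edgeR) without control 2. Ptgis, Ptgs1 and Ptges all lie on chromosome 2, at 167191805 to 167240604 (minus strand), 36230426 to 36252272 (plus strand) and 30889471 to 30929863 (minus strand). Exons of opposite-strand genes cover 6.08% of Ptgis and 3.81% of Ptgs1 and none of Ptges.

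**Figure D2:**
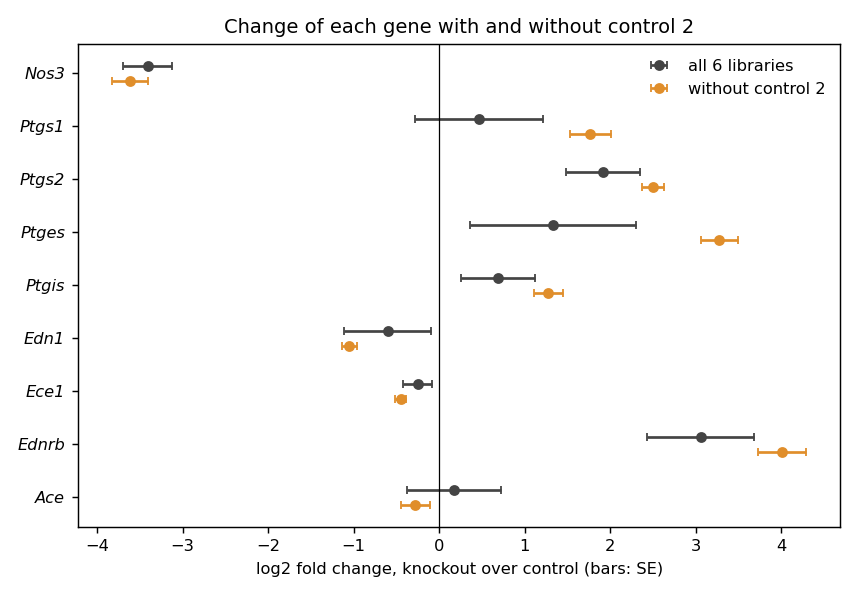
Log2 fold change of each of the 9 genes in knockout over control (x axis), from edgeR fits of all 6 libraries (dark) and of the 5 without control 2 (orange); bars are 1 SE. Nos3, Ptgs2 and Ednrb lie on the same side of 0 in both fits by several SE, Ptges moves from 1.33 to 3.28, and Ace changes sign.

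Of 29 further genes of prostanoid and related lipid metabolism, 15 were tested: 5 rose, 1 fell and 9 did not pass (median log2 fold change -0.07), beside 24.7% passing over all genes. Without control 2, 8 were higher and 3 lower, with a median of 0.53, beside 50.3% passing over all genes. Pla2g4a, encoding the cytosolic phospholipase that frees arachidonic acid for the cyclooxygenases, had 32.1, 98.9 and 40.1 CPM in controls 1 to 3 and 333, 377 and 324 CPM in knockouts 1 to 3. It rose 6.04-fold (a log2 change of 2.60, SE 0.45 and adjusted p = 0.0129 by edgeR), with control 2 above the other controls but well below the knockouts. Akr1b3, an aldo-keto reductase gene, rose from 36.3 ± 0.973 to 72.4 ± 2.60 CPM (a log2 change of 1.00, SE 0.06 and adjusted p = 9.906e-04 by edgeR). Abcc4, encoding an efflux pump that exports prostaglandins, rose from 53.5 ± 2.33 to 81.4 ± 0.640 CPM (a log2 change of 0.60, SE 0.06). Ptges2, a constitutive prostaglandin E synthase gene, rose from 12.8 ± 2.48 to 22.1 ± 2.16 CPM (a log2 change of 0.79, SE 0.16).

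Receptor genes were low. Ptger4, a prostaglandin E receptor gene also named after its values were seen, had 2.74, 14.4 and 4.99 CPM in controls 1 to 3. It had 2.01 to 4.47 CPM in knockouts and did not pass (a log2 change of -1.32, edgeR adjusted p = 0.208). Tbxa2r, the thromboxane receptor gene, rose from a range of 0.603 to 1.36 CPM to one of 1.78 to 3.74 CPM (edgeR adjusted p = 0.0382), and Alox5, the leukotriene-forming lipoxygenase gene, was the 1 that fell (a log2 change of -1.98, edgeR adjusted p = 0.0120). Both were named after their values were seen. The prostacyclin receptor gene Ptgir had 5.50 CPM in control 2 and at most 1.13 CPM in any other library. Pla2g4a lost its call without knockout 2 (edgeR adjusted p = 0.0558) and Ptges2 without any 1 library other than control 2 (up to 0.0863). Akr1b3 and Abcc4 kept theirs without any 1 library.

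Of the endothelin genes among the 9, the receptor gene Ednrb passed the test with all libraries and the ligand and converting enzyme genes did not. Edn1 had 1048, 255 and 979 CPM in controls 1 to 3 and 559, 485 and 457 CPM in knockouts 1 to 3. Control 2 was the lowest library of all, below the knockouts, and controls 1 and 3 the highest. With all libraries the log2 fold change was -0.60 (SE 0.51 and adjusted p = 0.428 by edgeR). Without control 2 Edn1 fell to 49.4% of the control mean (a log2 change of -1.05, SE 0.09 and adjusted p = 1.160e-04 by edgeR). A fit of the 6 libraries with sex as a covariate gave 0.01 (edgeR adjusted p = 0.987). Edn1 (ENSMUSG00000021367) lies on chromosome 13, 42301476 to 42307990, plus strand, and 1.64% of its exon bases lie in exons of an opposite-strand gene. The other ligand genes, Edn2 and Edn3, had at most 6 and 3 counts in any library.

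Ece1 was abundant throughout, at 1175, 827 and 1252 CPM in controls 1 to 3 and 934, 872 and 928 CPM in knockouts 1 to 3. Control 2 lay just below the knockouts and the other controls above them. The log2 fold change was -0.25 (SE 0.17 and adjusted p = 0.324 by edgeR), and -0.45 (SE 0.06 and adjusted p = 9.327e-04 by edgeR) without control 2. Its related gene Ece2 fell from 24.1 ± 4.67 to 11.1 ± 0.463 CPM (a log2 change of -1.12, SE 0.15 and adjusted p = 0.00644 by edgeR) and kept its call without any 1 library. Per kilobase Ece1 made up 96.4% to 98.2% of their sum in controls and 98.7% to 98.8% in knockouts.

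Ednrb rose from a very low level. It had 1.58, 5.23 and 1.04 CPM in controls 1 to 3 (30, 96 and 19 counts) and 18.0, 27.7 and 19.9 CPM in knockouts 1 to 3 (351, 497 and 357 counts). Every knockout was above every control, and control 2 was the highest control. The rise from 2.62 ± 2.28 to 21.9 ± 5.15 CPM gave a log2 fold change of 3.06 (SE 0.63 and adjusted p = 0.0206 by edgeR), and 4.01 (SE 0.28 and adjusted p = 4.549e-05 by edgeR) without control 2. The call was lost without control 1 or any 1 knockout (edgeR adjusted p up to 0.0810, log2 fold change 2.80 to 3.19). Ednrb (ENSMUSG00000022122) lies on chromosome 14, 103814625 to 103844402, minus strand, with no exon shared with another gene.

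Ednrb is also known from astrocytes and mural cells. Of 8 astrocyte markers, 5 were tested and had edgeR adjusted p of 0.177 or more with all libraries (0 of 5 at an unadjusted p under 0.05). Without control 2 Aldoc, S100b and Slc1a3 were higher and Aldh1l1 lower in the knockouts, beside 50.3% passing over all genes. Slc1a3 had 0, 1.74 and 0.0548 CPM in controls 1 to 3 and 0.771 to 1.95 CPM in knockouts, and S100b 0.158, 9.69 and 0.603 CPM and 1.00 to 3.44 CPM. Gfap and Aqp4 were at most 0.548 and 0.272 CPM in any library. Aldh1l1 had 5.17 to 9.81 CPM over all libraries, and Aldoc 0.0548 to 0.708 CPM in controls and 0.822 to 1.17 CPM in knockouts. The pericyte and smooth muscle sum in the knockouts (783 to 1577 CPM) lay above controls 1 and 3 (477 and 592 CPM) and below control 2 (4306 CPM). Among those 12 markers, 1 passed with all libraries, Abcc9, which fell, beside 24.7% passing over all genes. Without control 2 Cnn1, Kcnj8, Pdgfrb and Vtn were higher and Abcc9 lower, beside 50.3%. Their part in the level of Ednrb was not tested. The A-type receptor gene Ednra, typical of smooth muscle, had 1.16, 23.4 and 2.41 CPM in controls 1 to 3 and 1.13, 0.279 and 0.278 CPM in knockouts 1 to 3 (a log2 change of -3.96, SE 1.37 and adjusted p = 0.0888 by edgeR). Ednra held 22, 429 and 44 counts in controls 1 to 3 and 22, 5 and 5 in knockouts 1 to 3. Outside control 2, shares of the receptors thus rest on few Ednra counts. Per kilobase, Ednrb made up 63.6%, 22.3% and 35.7% of the receptor transcripts in controls 1 to 3 and 95.3%, 99.2% and 98.9% in knockouts 1 to 3. The groups did not overlap in this share (exact two-sided permutation p = 0.1, the smallest possible).

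**Figure D3:**
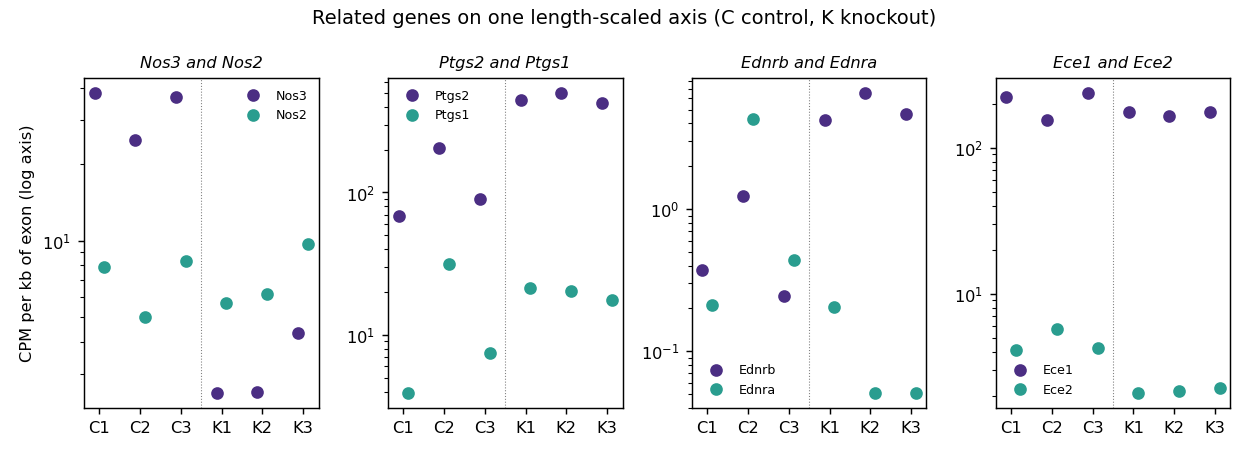
CPM per kilobase of annotated exon (y axis, log scale) of 4 pairs of related genes in controls 1 to 3 (C1 to C3) and knockouts 1 to 3 (K1 to K3). Nos3 lies above Nos2 in all controls and below it in all knockouts, and Ednrb lies above Ednra in the knockouts with a share of 95.3% or more.

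Of 16 further endothelin genes (processing enzymes, the other ligands and receptor, and downstream G proteins), 11 were tested: 1 rose, 2 fell and 8 did not pass, a share near the 24.7% passing over all genes, with a median log2 fold change of -0.26. Mme, encoding neprilysin, a peptidase that degrades endothelin, was the 1 that rose (a log2 change of 2.08, SE 0.49 and adjusted p = 0.0302 by edgeR), from 0.685 to 2.45 CPM in controls to 5.30 to 6.73 CPM in knockouts, and was named after its values were seen. Gna11, a G protein subunit gene, fell by 0.26 on the log2 scale (edgeR adjusted p = 0.0475), a call lost without any 1 library other than control 2. Without control 2, 3 of the 11 were higher and 5 lower, with a median of -0.29, beside 50.3% passing over all genes.

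Ace was the gene of the 9 with no call in either fit. It had 126, 33.1 and 157 CPM in controls 1 to 3 and 146, 116 and 95.7 CPM in knockouts 1 to 3. The groups overlapped with and without control 2, which was again the lowest library. The log2 fold change was 0.18 (SE 0.55 and adjusted p = 0.838 by edgeR), and -0.28 (SE 0.17 and adjusted p = 0.220 by edgeR) without control 2. Ace (ENSMUSG00000020681) lies on chromosome 11, 105967945 to 105989964, plus strand, and 5.58% of its exon bases lie in exons of an opposite-strand gene.

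Most core genes of the angiotensin system other than Ace were scarcely detected. Ren1 and Agtr1a had at most 1 count in any library, Agtr1b at most 5 and Agtr2 at most 12. The precursor gene Agt had 110 counts in control 2 and at most 7 elsewhere. Of 29 genes listed for angiotensin and kinin metabolism, 14 were tested: 2 rose, 4 fell and 8 did not pass, with a median log2 fold change of -0.22, beside 24.7% passing over all genes. Without control 2, 6 of 15 were higher and 5 lower, with a median of 0.07, beside 50.3%. Prcp, encoding a carboxypeptidase that acts on angiotensin II, fell from 81.4 ± 6.95 to 46.4 ± 0.685 CPM (a log2 change of -0.81, SE 0.08 and adjusted p = 0.00273 by edgeR). Agtrap, whose product lowers surface angiotensin receptor, rose from 53.0 ± 6.94 to 90.8 ± 3.29 CPM (a log2 change of 0.78, SE 0.11 and adjusted p = 0.00664 by edgeR). Thop1, a peptidase gene, fell (a log2 change of -0.39) and Atp6ap2, the (pro)renin receptor gene, rose (0.28), both by small amounts. The call of Thop1 was lost when control 3, knockout 1 or knockout 2 was left out, and that of Atp6ap2 when control 3, knockout 1 or knockout 3 was. Cpm and Xpnpep2, which encode kinin-cleaving peptidases and were named after their values were seen, also fell (log2 changes of -1.76 and -3.92).

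**Figure D4:**
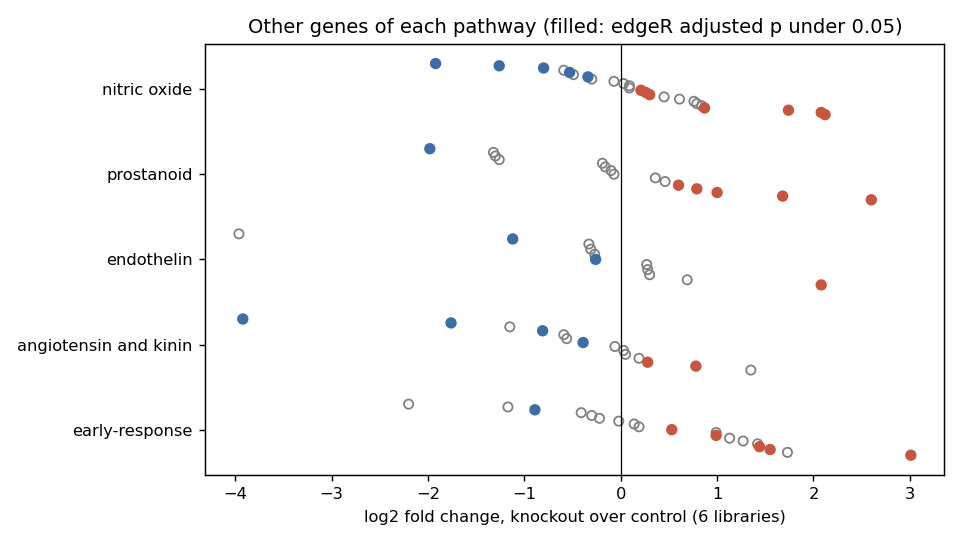
Log2 fold change (x axis, 6 libraries) of the tested genes of 5 lists, the 9 genes themselves left out. Each circle is a gene, filled where it passed the edgeR test (red higher, blue lower in knockouts), and each list holds calls on both sides of 0.

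Levels of the 9 genes were set side by side per kilobase of annotated exon. In controls the order was Edn1 (355 ± 205 CPM per kilobase), Ece1 (205 ± 42.7), Ptgs2 (120 ± 73.1), Nos3 (33.3 ± 7.16), Ace (20.0 ± 12.2), Ptgis (18.9 ± 11.7), Ptges (18.2 ± 23.6), Ptgs1 (14.3 ± 15) and Ednrb (0.613 ± 0.534). Neighbours in this order overlapped between libraries except Ptgs2 with Nos3 and Ptgs1 with Ednrb. In knockouts it was Ptgs2 (457 ± 35.5), Edn1 (234 ± 24.7), Ece1 (172 ± 6.41), Ptges (45.9 ± 5.47), Ptgis (30.4 ± 5.16), Ace (22.6 ± 4.82), Ptgs1 (19.8 ± 1.92), Ednrb (5.13 ± 1.21) and Nos3 (3.13 ± 1.03). Here Ptgis with Ace, Ace with Ptgs1, and Ednrb with Nos3 overlapped, and the other neighbours did not. Nos3 thus moved from the middle of the order to its end and Ptgs2 to its head.

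Ptgs2 and Edn1 are known as genes that respond quickly to stimulation or handling of cells, and 19 early-response genes were read beside them. Of these 5 rose, 1 fell and 13 did not pass (median log2 fold change 0.53), beside 24.7% passing over all genes. Fos had 10, 40.4 and 11.5 CPM in controls 1 to 3 and 183, 166 and 151 CPM in knockouts 1 to 3, a rise of 3.01 on the log2 scale (SE 0.59 and adjusted p = 0.0178 by edgeR). Junb rose from 71.9 ± 38.9 to 210 ± 14.7 CPM (a log2 change of 1.55), Ier3 from 191 ± 16.6 to 518 ± 30.2 CPM (1.44) and Ier2 from 44.8 ± 11.6 to 89.0 ± 2.49 CPM (0.99). Atf3, named after its values were seen, fell by 0.89 on the log2 scale. Without control 2, 11 were higher and 4 lower with a median of 1.19, beside 50.3% passing over all genes. Fos lost its call without control 3 or any 1 knockout, Junb without any 1 library other than control 2 and Ier2 without any 1 knockout, while Ier3 kept it. The part of this response in the level of Ptgs2 was not tested.

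For 8 of the 9 genes, the tested gene with the most similar profile over the 6 libraries was found among those with a mean of at least 5 CPM. Likeness is the root mean square difference of log2(CPM + 1) values centred on each gene's mean, a description with no test, and over 6 libraries it mostly reads group and control 2. For Nos3 this was Sh2d3c, at 178, 122 and 178 CPM in controls and 9.66, 11.2 and 22.1 CPM in knockouts (difference 0.13, against a median of 1.71 over all such genes). Ptgs2 was closest to Il1rap, an interleukin 1 receptor subunit gene (38.2, 89.2 and 41.6 CPM in controls, 219 to 244 CPM in knockouts, difference 0.12, median 1.15). Ednrb was closest to Dusp27 (difference 0.10, median 1.5) and Edn1 to Ulbp1 (0.06, median 0.72). The closest to Ptgs1 was Flrt2 (0.13), to Ptgis the receptor gene Lgr4 (0.11), to Ace the Notch ligand gene Jag2 (0.16) and to Ptges the retinoic acid hydroxylase gene Cyp26b1 (0.16). Cyp26b1 shared the pattern of Ptges, with 109 CPM in control 2, 8.17 and 12.1 CPM in controls 1 and 3 and 89.7 to 96.9 CPM in knockouts. Il1rap lost its call without knockout 2, and Dusp27 without any 1 library other than control 2.

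The distance of control 2 from the other controls can be read beside that of the knockouts, both taken against the mean of controls 1 and 3, which they share. On the log2 scale, control 2 differed by -0.58 for Nos3, 1.37 for Ptgs2 and 1.99 for Ednrb, and the knockout mean by -3.58, 2.54 and 4.05. For these called genes control 2 was less far from the other controls than the knockouts were. For Ptges the values were 3.30 for control 2 and 3.31 for the knockouts, and for Ptgis 1.40 and 1.31. For Ptgs1 they were 2.47 and 1.80, for Edn1 -1.99 and -1.02, for Ece1 -0.55 and -0.41 and for Ace -2.10 and -0.25. In these 6 genes, which did not pass with all libraries, control 2 was about as far from the other controls as the knockouts, or farther. Control 2 was among the controls of that test, so the contrast between called and uncalled genes partly follows from the test itself.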

How the data were processed

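RNA of sorted cultured brain endothelial cells was sequenced as 6 polyadenylated libraries. The authors deposited raw counts per Ensembl gene (52636 rows, 0 naming no gene). Per the submitters' processing notes FastQC 0.11.5, STAR 2.7.6a and GRCm38 were used. Which program counted reads, whether by strand and on which annotation is not given in the sources used here, and the labels name an unstranded and a stranded kit without saying which was used, so reads of overlapping genes could be mixed.

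Groups and replicate numbers came from sample titles. Counts were fitted in R 4.3.3 with edgeR 4.0.16 (filterByExpr by group, TMM, glmQLFit and glmQLFTest, two-sided, no covariate, Benjamini-Hochberg over 13901 genes). SE is the fold change divided by the square root of F. The test was tested on simulated data. Depth was 17274639 to 19410458 counts, and no library pair was a duplicate (lowest chi-square per degree of freedom 5.80). Symbols, positions and exon lengths came from GENCODE M21 (GRCm38), which matched 52489 identifiers. One name of the prostanoid list, Prxl2b, is the newer name of Fam213b, which was counted once.

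The members and lists were chosen with earlier results of these data known. Named were the 9 genes, Erg and Fli1, the 4 called genes with the largest change and a mean of at least 5 CPM from each of 5 lists, and the gene most like each member; a few of these are not reported here. Alternatives were other scalings, DESeq2 1.42.0, limma voom (3.58.1), other filters, a replicate block, a sex term, each library left out and a threshold of 0.01. Library-size scaling of the permutation test was added after seeing the data. Astrocyte, microglia, neuron, oligodendrocyte and epithelial markers summed to at most 19.5, 164, 97.4, 5.36 and 10.2 CPM in any library. The astrocyte, microglia and neuron maxima were in control 2, where Tmem119 of the microglia list alone had 160 CPM. Of these lists Mbp (at most 4.02 CPM) and Krt18 (at most 9.45 CPM) passed with all libraries, both higher in knockouts.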

Additional observations from a re-analysis of the deposited data

How the results depend on the processing

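The calls rest on few libraries. Leaving out 1 library at a time gave 1351 to 7128 called genes in all (3437 with all libraries), 1 to 8 of the 9 members (3), 2 to 20 nitric oxide genes (12), 2 to 11 prostanoid genes (6), 1 to 8 endothelin genes (3), 3 to 11 angiotensin and kinin genes (6) and 1 to 15 early-response genes (6). The highest count in each came without control 2. At an adjusted p under 0.01 these 7 counts were 1256, 1, 2, 2, 1, 3 and 1.

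Replicate numbers are shared by the groups, but deviations of same-numbered libraries from their group means correlated at -0.19, 0.19 and 0.32, so the numbers do not show pairing, and control 1 correlated best with knockout 3. With the replicate block 1844 genes, 3 members, 2 nitric oxide, 1 endothelin and 3 angiotensin and kinin genes passed. With a sex term 5 nitric oxide genes passed, beside 2623 genes in all. With no filter on low counts 5 passed as well, beside 2679 of 27083 genes tested. With DESeq2 6 endothelin and 10 early-response genes passed, beside 4375 genes in all. Library-size scaling gave 2501 higher and 1268 lower genes in all, against 1816 and 1621 with TMM, and shifted the median fold change by 0.09.

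Signs changed for uncalled genes. Edn1 had 0.01 with the sex term. Leaving out 1 library at a time gave -0.28 to 0.56 for Ace, -0.23 to 0.49 for Jag2 and -0.21 to 1.74 for Flrt2. The negative values were those without control 2 for Ace, without control 2 (-0.23) or knockout 1 (-0.03) for Jag2 and without control 1 (-0.21) or control 3 (-0.12) for Flrt2. Under the other scalings and tools the 9 genes kept their direction and the same 3 were called. With the longest transcript as length, Ace and Ptgis changed places in the order of control levels. With a pseudocount of 0.1 CPM the most similar gene was the same for 7 of the 9 genes.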
